A study of Mus musculus with 6 samples.

Results

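The effect of a single *Trp53* R270H allele was examined in irradiated mouse prostate by comparing 2 heterozygous mice (*Trp53* +/R270H, animals 37 and 40) with 2 wildtype mice (*Trp53* +/+, animals 39 and 41). These are 4 of the 6 mice of the series, and the other two, which carry the mutation on both alleles, did not enter the comparison. All mice were of the strain B6.129S4-Trp53tm3.1Tyj/J, were irradiated with 5 Gy over the whole body at an age of about 3 months, and had their prostates removed 6 h after that. Wildtype and heterozygous mice therefore share the radiation, and no unirradiated prostate is part of the data. The sources name no Cre recombinase and no tissue-specific promoter, and each sample is the prostate of a single mouse. RNA-seq of polyadenylated RNA gave 1 value per gene and mouse in FPKM, a number of fragments scaled for the length of the transcript and for the number of mapped fragments. Of 47719 listed genes, 13737 averaged 1 FPKM or more in these 4 mice and were tested.

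p53 is a transcription factor that works as a tetramer. DNA damage stabilizes it, and the tetramer then binds response elements near genes that halt the cell cycle, start apoptosis, repair DNA, adjust metabolism, or, as with *Mdm2*, bring p53 itself back down. Arginine 270 of the mouse protein corresponds to a hot spot of mutation in the DNA-binding domain of the human protein, and because mutant and wildtype subunits can enter the same tetramer, a single mutant allele can affect more than its own share of the protein.

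The altered codon lies at chr11:69589607-69589609 of GRCm38, in exon 8 of 11 of *Trp53* (ENSMUSG00000059552, chr11:69580359-69591873, plus strand), whose product has 390 residues. It is shown here because it gives the mutant allele its name. The genotyping products that the paper gives for the wildtype and mutant alleles differ in length, so the codon is not the only difference in sequence. The reference sequence of chr11:69589586-69589630 is given 5′ to 3′ with codon 270, which encodes arginine, in capitals.
Trp53: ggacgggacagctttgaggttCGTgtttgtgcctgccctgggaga

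*Trp53* mRNA itself did not differ detectably between the genotypes. It was measured at 17.3 and 21.4 FPKM in the wildtype mice and at 20.9 and 19.6 FPKM in the heterozygous mice, so that both heterozygous values fell between the wildtype ones. The difference, heterozygous minus wildtype on the log2(FPKM + 0.1) scale used throughout, was 0.07 ± 0.15 (SE, n = 2 mice per genotype), with a 95% interval from -0.32 to 0.46 (limma adjusted p = 0.945). Gene-level FPKM do not separate the alleles, so this value gives the level of the gene and does not check the genotype labels.

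The samples were similar in depth, and 1 of them stood apart in secretory genes. Relative depth was estimated from the most frequent ratio to mouse 39 among genes with very low values in both mice. This assumes that such genes mostly hold the same small number of fragments in both. By this estimate mouse 41 had 0.818, mouse 37 0.847 and mouse 40 0.914 times the fragments of mouse 39. Between 13452 and 13827 genes reached an FPKM of 1. The median gene differed by 0.21 on the log2 scale between the wildtype mice and by 0.19 between the heterozygous mice. Genes that were 2-fold or more apart numbered 868 in the wildtype pair and 285 in the heterozygous pair. Secretory genes of the seminal vesicle, a gland attached to the prostate, summed to 3499 FPKM in wildtype mouse 39 and to 49752, 57302 and 55832 FPKM in mice 41, 37 and 40. Secretory genes of the prostate summed to 85453 FPKM in mouse 39 and to 64538, 71538 and 52099 FPKM in mice 41, 37 and 40, and among them *Defb50* was at 16450 FPKM in mouse 39 and at 6603, 6575 and 7847 FPKM in the others. These prostate sums include *Sbp*, which was listed at 0 in mice 39 and 40 only, so they are not comparable between the mice. Calls of named genes that were lost without a single mouse are given below. No litter, cage or batch is given in the labels, nor which lobes of the gland a sample holds.

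A gene was said to rise or fall if its unadjusted limma p-value was below 0.05 and its change was at least 1.5-fold. These are the thresholds that the study applied to a different test, across its 3 genotypes, set here on a test between 2 genotypes. By this criterion 490 genes (3.57% of those tested) were higher and 141 genes (1.03%) were lower in heterozygous than in wildtype prostate. The p-values measure the spread between these 4 mice only. After Benjamini-Hochberg adjustment over all 13737 genes, 1 gene (0.00728%) had a p below 0.05, and the next lowest adjusted p was 0.189, so every rise and fall below rests on the unadjusted criterion unless stated. Without any p-value, both heterozygous values lay above both wildtype values for 2590 genes (18.9%) and below them for 2746 genes (20.0%). An exact permutation test of 2 against 2 mice cannot give a two-sided p below 0.333 for any single gene. The median difference over all tested genes was -0.02.

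**Figure D1:**
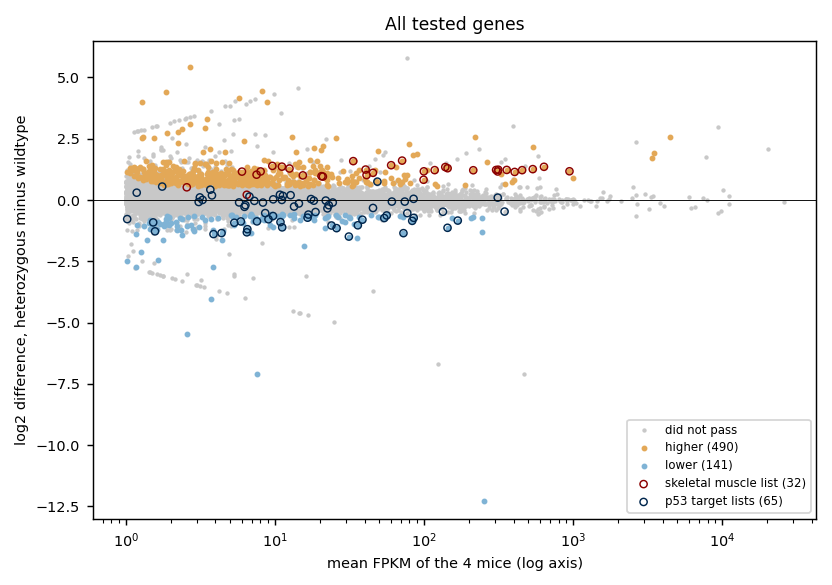
Difference between heterozygous and wildtype prostate (log2 scale, y axis) against mean FPKM of the 4 mice (log axis, x axis) for the 13737 tested genes, with the 490 higher and 141 lower genes coloured and the members of the skeletal muscle list (32) and of the p53 target lists (65) ringed. The ringed muscle genes form a band near 1.22 and most of the ringed p53 targets that moved lie below 0, while the lowest coloured point is *Scarna17*.

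Part of the known p53 targets fell in heterozygous prostate. Of 71 symbols on 6 lists of p53 targets, of which *Cop1* and *Rfwd2* name the same gene, 65 were tested, and 27 of these fell (41.5%, against 1.03% of all tested genes), 1 rose and 37 did not pass, 23 of which overlapped between the genotypes. The study names *Mgmt*, 1 of the 27, with gain-of-function genes of mutant p53, and without it 26 of 64 fell. These lists and the other gene lists below were chosen with earlier results of these data known. Shares of their members that rose or fell are therefore descriptions only. The heterozygous level of the 27 genes was between 35.6% and 66.3% of the wildtype level, with a median of 53.1%. In each of the 27, both heterozygous mice were below both wildtype mice, which the criterion on these same values largely brings about. Of all 65 tested targets, both heterozygous mice were below both wildtype mice in 39 and above them in 3. Among all tested genes the shares were 20.0% and 18.9%. The 27 made up 19.1% of the 141 lower genes. Their adjusted p-values lay between 0.189 and 0.626, so no single target passed the adjusted threshold. In bulk tissue, fewer cells of a type and less RNA per cell cannot be told apart. Beside this result, none of 10 luminal epithelial markers passed, with a median difference of -0.17, and 30 of 32 skeletal muscle genes rose, as described further on. The part of these tissue shifts in the p53 target values was not tested.

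**Figure D2:**
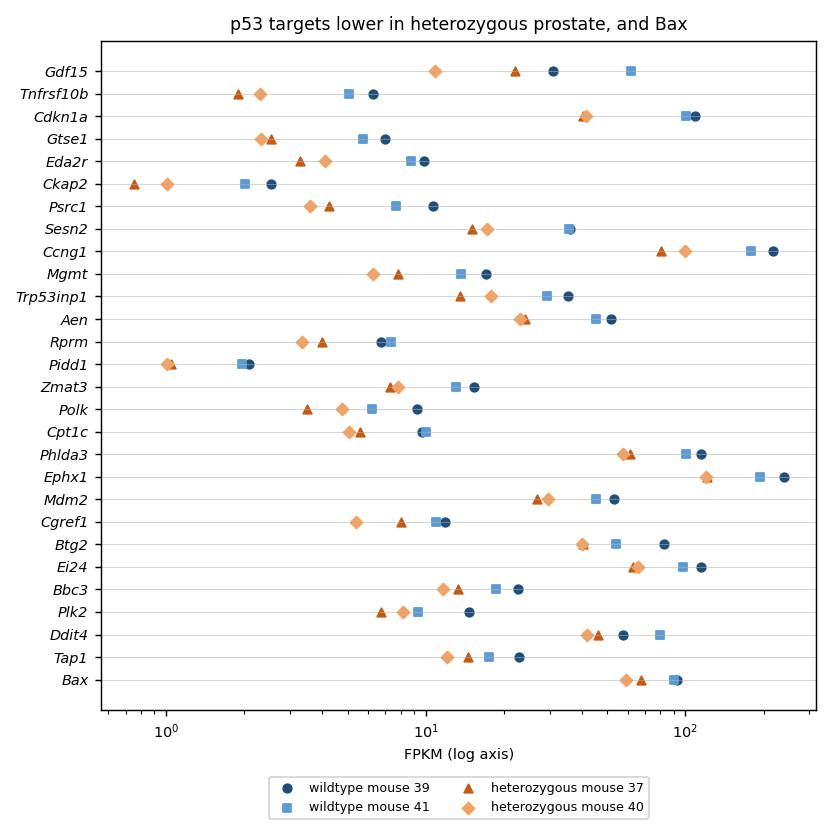
FPKM (log axis) of the 27 p53 targets that fell and of *Bax* in each of the 4 mice. In every row the orange heterozygous symbols lie to the left of the blue wildtype symbols, and in *Gdf15* the mice of a genotype are farther apart than in *Cdkn1a*.

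The targets listed under arrest and cell cycle showed the lowest median of the 6 lists. Of 11 tested genes 8 fell and none rose, and the median difference was -0.93. *Cdkn1a*, which encodes the cyclin-dependent kinase inhibitor p21, was at 109 and 101 FPKM in the wildtype mice and at 40.5 and 41.4 FPKM in the heterozygous mice. The genotypes were far apart and the mice of each genotype close together, with a difference of -1.35 ± 0.12 (SE, n = 2 per genotype), an unadjusted p of 1.17e-04 and an adjusted p of 0.189 (limma). *Gtse1*, whose product binds p53 in the G2 phase, was at 6.96 and 5.76 FPKM in wildtype and 2.53 and 2.32 FPKM in heterozygous mice, a difference of -1.35 ± 0.17. *Ccng1*, cyclin G1, went from 217 and 179 FPKM to 80.6 and 99.7 FPKM, a difference of -1.13 ± 0.18. *Ckap2*, *Psrc1*, *Rprm*, *Btg2* and *Plk2* also fell, by 1.28, 1.19, 0.93, 0.74 and 0.65 on the log2 scale. *Rprm* encodes Reprimo, a mediator of arrest in G2. The 3 tested members that did not pass were *Gadd45a* (33.4 and 18.3 FPKM in wildtype, 22.9 and 23.3 FPKM in heterozygous mice), *Sfn*, which encodes 14-3-3 sigma, and *Plk3*, and in all of them the genotypes overlapped.

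Targets that act in apoptosis fell next most often. Of 16 tested genes 9 fell, none rose, and the median difference was -0.75. *Tnfrsf10b*, a death receptor for TRAIL, was at 6.26 and 5.07 FPKM in wildtype and at 1.89 and 2.31 FPKM in heterozygous mice, a difference of -1.39 ± 0.20 (SE, n = 2 per genotype, limma adjusted p = 0.291). *Eda2r*, another receptor of the tumour necrosis factor family, was at 9.83 and 8.76 FPKM against 3.28 and 4.09 FPKM, a difference of -1.32 ± 0.17. *Aen*, a nuclease that promotes apoptosis, was at 51.5 and 45.4 FPKM against 24.1 and 23.2 FPKM, a difference of -1.03 ± 0.13. In all of these receptors and nucleases the higher heterozygous mouse stayed well under the lower wildtype mouse. *Trp53inp1* (35.3 and 29.2 against 13.6 and 17.8 FPKM), *Zmat3* (15.4 and 13.1 against 7.29 and 7.86 FPKM) and *Phlda3* (115 and 100.3 against 61.4 and 57.5 FPKM) fell as well, as did *Pidd1* and *Ei24*.

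Among the BCL2 family members of that list, *Bbc3*, which encodes the BH3-only protein PUMA, fell from 22.8 and 18.6 FPKM to 13.3 and 11.6 FPKM, a difference of -0.72 ± 0.16. *Bax*, the pore-forming effector, was at 92.5 and 90.4 FPKM in wildtype and 67.6 and 58.9 FPKM in heterozygous mice. Its difference of -0.53 ± 0.13 (SE, n = 2 per genotype, unadjusted p = 0.0107, limma adjusted p = 0.443) did not reach 1.5-fold, although the genotypes did not overlap. *Pmaip1*, encoding NOXA, was low in every mouse, at 1.10 and 1.55 FPKM against 0.663 and 0.783 FPKM, and did not pass. *Bid* did not pass either, with overlapping values and a difference of 0.0046 ± 0.29. *Bcl2*, the antiapoptotic member, was not on the lists and measured 3.49 and 2.87 FPKM in wildtype and 4.32 and 4.51 FPKM in heterozygous mice, a difference of 0.47 ± 0.17 that did not reach 1.5-fold. *Fas*, a death receptor that is also a p53 target, overlapped between the genotypes, with a 95% interval from -0.72 to 0.19.

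The genes through which p53 limits its own activity gave 1 fall among 5 tested members. *Mdm2*, the ubiquitin ligase that marks p53 for degradation, was at 53 and 45.4 FPKM in wildtype and 26.8 and 29.5 FPKM in heterozygous mice, a difference of -0.80 ± 0.14 (SE, n = 2 per genotype, limma adjusted p = 0.291). *Mdm4*, *Ppm1d*, *Rchy1* and *Rfwd2* did not pass. In each of them both heterozygous mice were below both wildtype mice, as in 20.0% of all tested genes, with differences between -0.49 and -0.21. *Trp53cor1*, the noncoding RNA upstream of *Cdkn1a* also known as lincRNA-p21, fell just below the limit for testing and was at 1.62 and 1.31 FPKM in wildtype and 0.390 and 0.673 FPKM in heterozygous mice.

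Targets in metabolism and in DNA repair had list medians close to that of all tested genes, and a part of each list fell. Of 14 metabolic and autophagy genes 3 fell (21.4%, against 1.03% of all tested genes) and 1 rose (7.14%, against 3.57%). The list median was 0.02. *Sesn2*, a stress sensor that restrains mTORC1, was at 35.9 and 35.7 FPKM in wildtype and 15.1 and 17.1 FPKM in heterozygous mice, a difference of -1.15 ± 0.12 (SE, n = 2 per genotype, limma adjusted p = 0.289). Its relative *Sesn1* was at 12.4 and 9.03 FPKM against 12.2 and 11.7 FPKM, with overlapping genotypes and a 95% interval from -0.31 to 0.65. *Cpt1c* (9.68 and 10.004 against 5.60 and 5.08 FPKM) and *Ddit4*, another restraint on mTORC1 (57.8 and 79.5 against 46.0 and 41.7 FPKM), also fell. *Ak1*, an adenylate kinase that is abundant in muscle, rose from 31.7 and 41.4 FPKM to 59.2 and 62.8 FPKM.

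Of 10 repair and nucleotide genes 2 fell (20.0%, against 1.03% of all tested genes) and none rose, and the list median was -0.06. *Mgmt*, which removes alkyl groups from guanine in DNA, was at 17.0 and 13.7 FPKM in wildtype and 7.80 and 6.28 FPKM in heterozygous mice, a difference of -1.12 ± 0.18 (SE, n = 2 per genotype, limma adjusted p = 0.291). *Polk*, a translesion polymerase, was at 9.24 and 6.18 FPKM against 3.48 and 4.78 FPKM. *Pcna*, *Ddb2*, *Xpc* and *Rrm2b* overlapped between the genotypes, and for *Pcna* the 95% interval ran from -0.33 to 0.28, which leaves out a change of 1.5-fold in either direction. A further list of 16 tested genes of damage signalling and repair, such as *Parp1* and *H2afx*, had none that passed and a median of -0.11.

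Of 10 tested targets that are secreted or lie at the cell surface, 5 fell and none rose. *Gdf15*, a secreted stress cytokine, had the largest fall of all 27, from 30.8 and 61.8 FPKM to 22.1 and 10.8 FPKM, and also the widest spread among them. Its difference was -1.49 ± 0.47 (SE, n = 2 per genotype, limma adjusted p = 0.545), and the mice of each genotype were farther apart than wildtype mouse 39 and heterozygous mouse 37. *Ephx1*, the microsomal epoxide hydrolase, was at 239 and 194 FPKM against 121 and 120.0 FPKM, a difference of -0.84 ± 0.16. *Cgref1* and the peptide transporter *Tap1* fell by 0.79 and 0.59, and the death receptor *Tnfrsf10b* is on this list too. *Cav1*, *Cd82*, *Ptk2b*, *Nos3* and *Thbs1* did not pass. *Cav1*, the main protein of caveolae, was at 82.9 and 84.7 FPKM in wildtype and 84.0 and 89.4 FPKM in heterozygous mice.

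**Figure D3:**
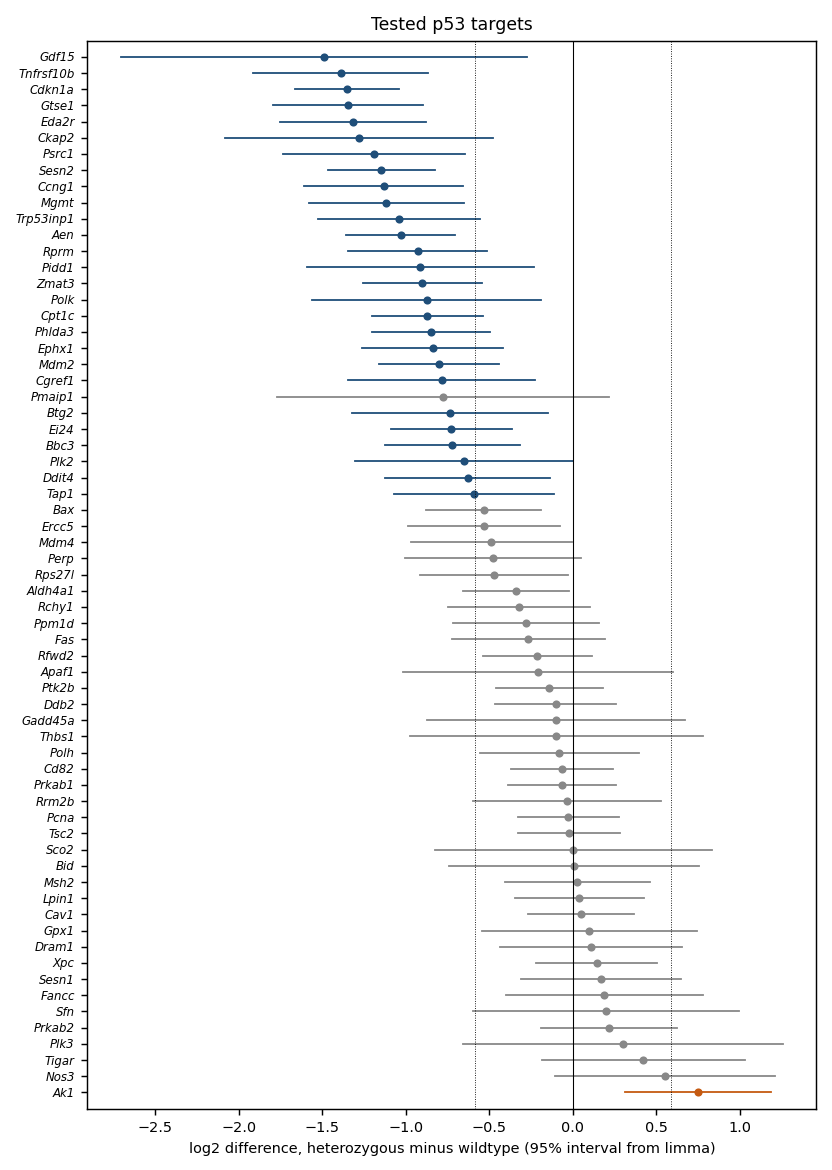
Difference between heterozygous and wildtype prostate (log2 scale, x axis) with its 95% limma interval for each of the 65 tested p53 targets, in order of size, with dotted lines at a 1.5-fold change. The 27 targets that fell (blue) run from -1.49 in *Gdf15* to -0.59 in *Tap1*, the 37 that did not pass (grey) include *Pmaip1* and *Bax*, and *Ak1* (orange) is the 1 that rose.

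The calls for 18 of the 27 genes held under every alternative setting in which the gene was tested, among them *Cdkn1a*, *Gtse1*, *Ccng1*, *Tnfrsf10b*, *Eda2r*, *Aen*, *Mdm2*, *Sesn2* and *Mgmt*. Leaving out single mice ended the others. *Bbc3*, *Btg2*, *Plk2*, *Polk* and *Tap1* no longer passed without wildtype mouse 39, and *Ddit4* no longer passed without wildtype mouse 41. *Btg2*, *Ddit4*, *Pidd1*, *Plk2*, *Polk* and *Tap1* were lost without heterozygous mouse 37, and *Bbc3*, *Btg2*, *Cgref1*, *Ddit4*, *Gdf15*, *Pidd1*, *Plk2* and *Tap1* without heterozygous mouse 40.

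Promoter sequences of the p53 targets that fell were searched for the p53 decamer, the 10-base unit that a full p53 response element holds in duplicate. The windows, from RefSeq on GRCm38.p6, run from 250 bases before to 50 bases after each transcription start, both strands were read, and a full element was taken as 2 decamers at most 13 bases apart. Of the 27 lower targets 24 had a window, and 8 of these (33.3%) held a decamer, against 2582 of 27025 genes with a window (9.55%) and 838 of 9995 tested genes (8.38%). For the 37 targets that did not pass, 6 of 27 with a window (22.2%) held it, for the 114 lower genes off the lists 9 of 69 (13.04%), and for the 490 higher genes 27 of 329 (8.21%). A full element was found in 20 genes of all (0.0740%), and *Cdkn1a* was the only one among the lower genes. These are matches of letters and not measured binding, and elements outside the windows were not searched. The window of *Cdkn1a* is printed because this gene had the smallest p-value of all targets (chr17:29090729-29091028, plus strand). In capitals are the 2 decamers that the search paired, which are 12 bases apart. The 10 bases directly after the second one, tgacatgttc, miss the searched pattern only at their first base and were not counted. The capitals therefore mark the match by this rule and not necessarily the element that p53 binds.
Cdkn1a: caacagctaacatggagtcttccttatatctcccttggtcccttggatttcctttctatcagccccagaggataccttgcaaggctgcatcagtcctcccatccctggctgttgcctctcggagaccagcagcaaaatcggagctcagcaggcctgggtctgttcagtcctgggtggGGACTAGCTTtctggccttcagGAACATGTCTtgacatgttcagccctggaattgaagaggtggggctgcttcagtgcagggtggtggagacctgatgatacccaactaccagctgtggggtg

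The decamers of the other lower targets are shown with 20 bases or slightly fewer on either side, so that the matching letters can be compared between promoters. Each is given 5′ to 3′ on the strand of its gene, with the decamer in capitals. That of *Ckap2*, on chromosome 8, is the seventh and is not printed.
Mdm2 (chr10:117710915-117710964, - strand): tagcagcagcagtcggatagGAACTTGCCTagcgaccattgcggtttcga
Ccng1 (chr11:40755442-40755491, - strand): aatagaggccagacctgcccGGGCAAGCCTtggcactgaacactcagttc
Aen (chr7:78895917-78895966, + strand): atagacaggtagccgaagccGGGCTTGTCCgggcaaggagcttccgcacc
Gtse1 (chr15:85859935-85859984, + strand): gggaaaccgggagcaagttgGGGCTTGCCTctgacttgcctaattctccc
Ei24 (chr9:36797315-36797364, - strand): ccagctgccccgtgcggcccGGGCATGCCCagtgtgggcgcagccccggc
Polk (chr13:96519389-96519437, - strand): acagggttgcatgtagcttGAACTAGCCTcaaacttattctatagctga

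*Mdm2*, *Ccng1*, *Aen*, *Gtse1*, *Ei24* and *Polk* fell by 0.80, 1.13, 1.03, 1.35, 0.73 and 0.87 on the log2 scale, so falls of different size were seen among genes with a decamer near the start.

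Skeletal muscle genes rose together, with the highest count of higher genes of any list. Of 36 listed genes, 32 were tested, 30 rose (93.8%, against 3.57% of all tested genes), none fell, and the median difference was 1.22. Their summed FPKM were 2745 and 3930 in wildtype mice 39 and 41 and 7452 and 7887 in heterozygous mice 37 and 40. *Acta1*, skeletal actin, was at 460 and 724 FPKM against 1296 and 1305 FPKM, a difference of 1.17 ± 0.29 (SE, n = 2 per genotype). *Ampd1*, the adenosine monophosphate deaminase of muscle, was at 6.28 and 6.13 FPKM against 16.2 and 16.04 FPKM, and had the smallest unadjusted p among the higher genes (8.48e-05, limma adjusted p = 0.189). *Cacna1s*, the calcium channel of the T tubule, *Myh1*, a fast myosin heavy chain, and *Myoz1* rose by differences of 1.39, 1.22 and 1.42. The members that did not pass were *Tnnt1* and *Myh2*. The slow-fibre genes *Myh7*, *Myl2*, *Tnni1* and *Tnnc1* were below the limit for testing in these mice.

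Several higher genes with the smallest p-values that were not on the muscle list are also known from striated muscle. *Apobec2* (9.11 and 10.95 against 25.6 and 26.7 FPKM), *Eef1a2* (33.1 and 35.5 against 73.3 and 78.8 FPKM) and *Dhrs7c* (5.02 and 5.79 against 16.6 and 13.7 FPKM) were all higher in both heterozygous mice. *Cryab*, a small heat shock protein that is abundant in muscle, was the only one of 13 cytosolic heat shock genes that passed (36.9 and 43.3 against 68.9 and 68.4 FPKM). Smooth muscle, which surrounds the prostate ducts, differed from this, with none of 12 genes passing and a median of 0.24. *Acta2*, smooth muscle actin, was at 498 and 568 FPKM against 614 and 546 FPKM. The source of the muscle RNA was not tested.

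**Figure D4:**
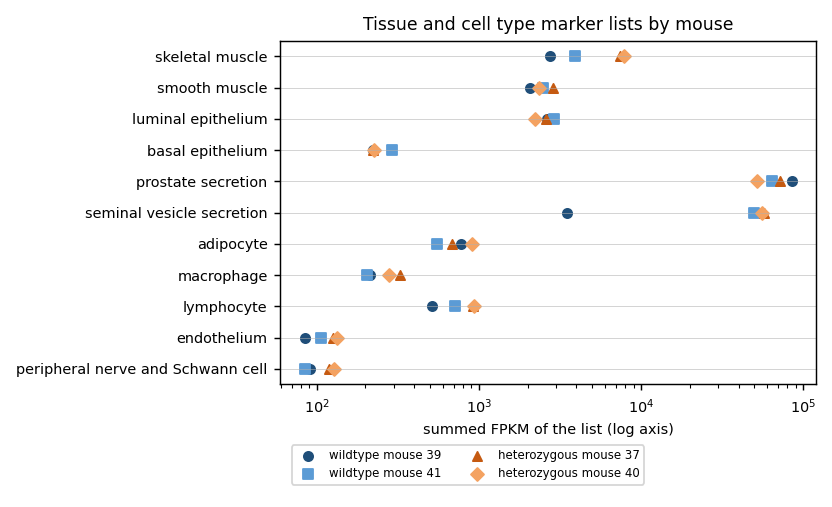
Summed FPKM (log axis) of 11 lists of tissue and cell type markers in each of the 4 mice. Skeletal muscle lies higher in both heterozygous mice (7452 and 7887) than in both wildtype mice (2745 and 3930), and the seminal vesicle sum of wildtype mouse 39 (3499) is far to the left of the other mice. The prostate secretion sums include *Sbp*, which was listed at 0 in mice 39 and 40 only.

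Markers of the prostate epithelium were present in all mice and differed little between the genotypes. *Krt18*, *Krt19* and *Cd24a* were the most abundant of 10 luminal genes, and *Krt18* was at 462 and 458 FPKM in wildtype and 461 and 392 FPKM in heterozygous mice. Of 9 basal genes none passed, with a median of -0.10.

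Of 13 tested genes of prostate secretion 1 fell, *Apof*, from 69.4 and 53.8 FPKM to 37.5 and 38.7 FPKM, and this call was lost without wildtype mouse 39, heterozygous mouse 37 or heterozygous mouse 40. *Pbsn*, encoding probasin, was at 11192 and 11512 FPKM against 8360 and 8174 FPKM and did not pass. *Sbp*, encoding a spermine-binding protein, was listed at 0 in mice 39 and 40 and at 19587 and 24775 FPKM in mice 41 and 37. These zeros may be failed estimates, although their deposited status is OK, so nothing is read from them. Of 9 tested seminal vesicle genes none passed, although their median difference was 1.92. That median became -0.58 without wildtype mouse 39 and 4.60 without wildtype mouse 41, where all 9 rose. *Svs5*, for example, was at 1731 FPKM in mouse 39 and at 24908, 28678 and 26312 FPKM in mice 41, 37 and 40.

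On the lists of other tissue components some genes rose and none fell. Of 10 genes of peripheral nerve and Schwann cells 6 rose (60.0%, against 3.57% of all tested genes), with a median of 0.62, led by *Sox10*, the transcription factor of the glial lineage, at 4.01 and 4.96 FPKM in wildtype and 10.4 and 11.2 FPKM in heterozygous mice (difference 1.25 ± 0.16, SE, n = 2 per genotype, limma adjusted p = 0.291). The calcium-binding protein gene *S100b* and the genes of the catecholamine enzymes *Th* and *Dbh* also rose. Of 12 endothelial genes 3 rose, *Pecam1*, *Cldn5* and *Tie1* (25.0%, against 3.57%), with a list median of 0.51. Of 12 macrophage genes 2 rose, *Lyz2* and *Cd163* (16.7%, against 3.57%), with a list median of 0.49, and in all 12 both heterozygous mice were above both wildtype mice, as in 18.9% of all tested genes. *Lyz2*, encoding lysozyme, was at 57.1 and 50.3 FPKM against 87.8 and 82.0 FPKM. Among collagens and other matrix genes none of 17 passed and the median was 0.25, with both heterozygous mice above both wildtype mice for 13 of them, against 18.9% of all tested genes. Sums of the muscle, nerve, endothelial, macrophage and lymphocyte lists were thus each higher in both heterozygous mice, and the dependence of these lists on one another was not tested.

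**Figure D5:**
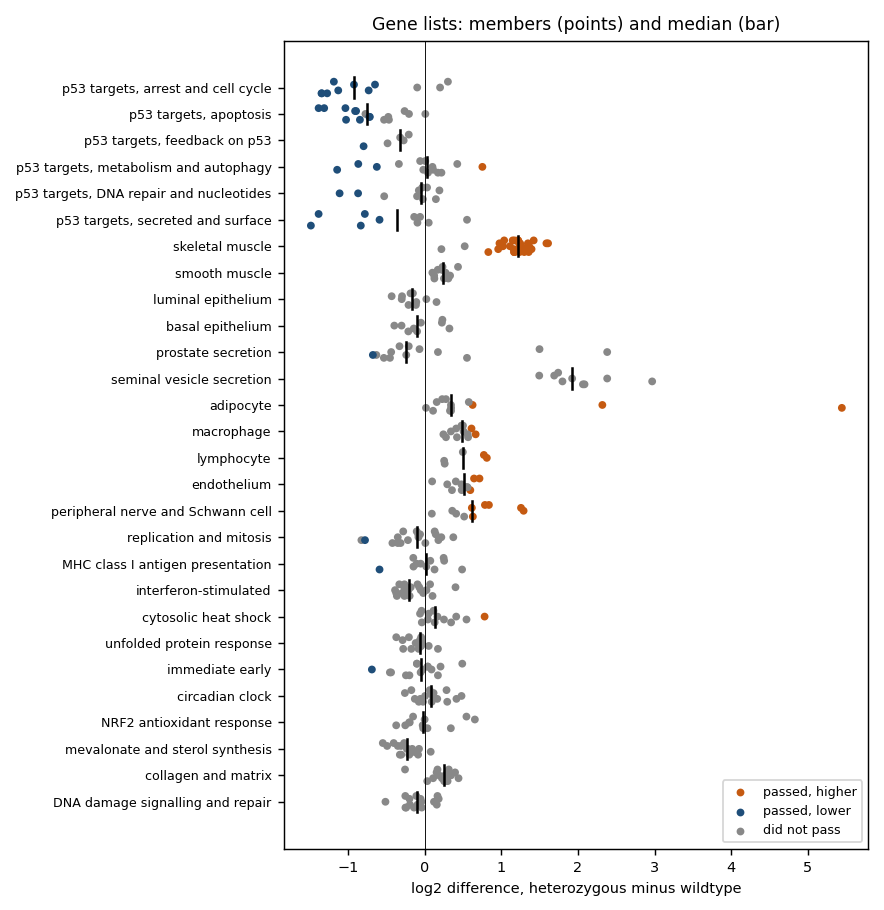
Difference between heterozygous and wildtype prostate (log2 scale, x axis) for the tested members of the gene lists, each point a gene and each black bar the list median, with genes that fell in blue, genes that rose in orange and genes that did not pass in grey. The p53 target lists of arrest and cell cycle and of apoptosis have the lowest medians (-0.93 and -0.75). Skeletal muscle has a median of 1.22 with almost all members coloured, and seminal vesicle genes have a median of 1.92 with none coloured.

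Brown fat genes stood out among 13 adipocyte genes. *Ucp1*, the uncoupling protein that defines brown fat, was listed at 0 and 0.0486 FPKM in wildtype mice 39 and 41 and was at 6.43 and 4.24 FPKM in heterozygous mice 37 and 40 (unadjusted p = 1.53e-04, limma adjusted p = 0.211). *Cidea*, a lipid droplet protein of brown fat, was at 0.744 and 0.556 FPKM against 5.04 and 2.58 FPKM, a difference of 2.32 ± 0.41. *Adipoq*, *Fabp4* and *Lep*, which mark fat in general, overlapped between the genotypes, and *Plin1* rose by a difference of 0.62. *Adipoq* was at 34.5 and 18.9 FPKM in wildtype and 26.8 and 38.5 FPKM in heterozygous mice.

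Some antibody genes rose and others fell or overlapped. *Igkc*, the kappa constant region, was at 228 and 371 FPKM against 495 and 526 FPKM, and *Jchain*, which joins secreted IgA and IgM, at 20.3 and 28.6 FPKM against 37.5 and 45.1 FPKM. Both calls were lost without wildtype mouse 39 and without heterozygous mouse 40. *Igha*, the IgA heavy chain, was chosen after its values were seen and was at 29.8 and 48.9 FPKM against 136 and 142 FPKM, while *Ighm*, that of IgM, overlapped. *Cd79a*, *Cd3e*, *Cd4* and *Cd8a*, which define B and T cells, were all below 1 FPKM in every mouse. Single variable segments moved in both directions: of 59 tested kappa segments 11 rose (18.6%) and 3 fell (5.08%), and of 48 heavy chain segments 5 rose (10.4%) and 4 fell (8.33%), against 3.57% and 1.03% of all tested genes. None of 3 lambda segments passed. *Ighv1-11* was at 0.164 and 0 FPKM in wildtype and 2.16 and 5.18 FPKM in heterozygous mice, and *Ighv1-47* at 1.44 and 2.18 FPKM against 0.173 and 0.316 FPKM. Such segments are near-identical copies of one another, so the assignment of fragments among them is uncertain.

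Some of the most abundant higher genes encode secreted proteins known from salivary, lacrimal and other exocrine glands, and they were chosen after their values were seen. *Prol1*, at chr5:88317312-88328814, was at 1233 and 2013 FPKM in wildtype and 4722 and 5628 FPKM in heterozygous mice, a difference of 1.71 ± 0.37 (SE, n = 2 per genotype, limma adjusted p = 0.355). Its neighbours *Smr2* (125 and 298 against 903 and 825 FPKM) and *Odam* (12.5 and 28.8 against 64.5 and 89.9 FPKM) also rose, and in the cluster of chromosome 5 that holds them 6 of 13 tested genes rose (46.2%, against 3.57% of all tested genes) and none fell. The cluster was drawn around genes already seen to be high, so this count is a description only, and *Jchain* is 1 of the 6. *Car6*, a secreted carbonic anhydrase on chromosome 4, was at 9.83 and 5.57 FPKM against 48.8 and 38.1 FPKM. *Aqp5*, the water channel of gland cells, was named by its small p-value and was at 10.4 and 11.8 FPKM against 28.4 and 29.2 FPKM, a difference of 1.37 ± 0.12 (limma adjusted p = 0.189). *Dcpp3*, among the genes with the largest rise, was at 0.206 and 1.09 FPKM against 24.7 and 6.84 FPKM.

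Genes outside the p53 lists made up the rest of the 141 lower genes. *Lif*, the leukaemia inhibitory factor, a cytokine gene that p53 is known to regulate, was at 2.77 and 2.73 FPKM in wildtype and at 0.792 and 0.842 FPKM in heterozygous mice, a difference of -1.64 ± 0.25 (SE, n = 2 per genotype, limma adjusted p = 0.291). *Celf5*, an RNA-binding protein, was at 2.49 and 1.77 FPKM against 0.460 and 0.364 FPKM, and *Fam212b* at 11.5 and 8.52 FPKM against 3.82 and 3.86 FPKM. The wildtype mice were close together in *Lif* and farther apart in *Celf5* and *Fam212b*. *S100a9*, a protein of neutrophils, was at 3.70 and 0.674 FPKM against 0.163 and 0.155 FPKM, and its fall was lost without heterozygous mouse 37 or 40. *Dynlt1b*, a dynein light chain, fell from 6.72 and 7.72 FPKM to 3.46 and 3.53 FPKM. *Rrm1* and *Pvt1*, chosen after their values were seen, fell by 0.81 and 0.79. *Rrm1* encodes the large subunit of ribonucleotide reductase, and *Pvt1* is a long noncoding RNA next to *Myc*.

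The only gene that passed the adjusted threshold was *Scarna17*, a guide RNA of the Cajal body that is 79 bases long (ENSMUSG00000088689). It was at 427 and 577 FPKM in the wildtype mice and listed at 0 in both heterozygous mice (limma adjusted p = 2.77e-04), so no fold change is given. A listed 0 can be a failed estimate for a gene this short, and the deposited values do not tell it from a lack of RNA. No deposited value is flagged as failed, since all carry the status OK. The snoRNA *Gm22620*, chosen after its values were seen, was likewise at 8.58 and 21.8 FPKM in wildtype and listed at 0 in both heterozygous mice. Genes this short are at or below the size of the fragments of an RNA-seq library and their RNA is mostly not polyadenylated. Of 62 tested genes for small RNAs of these classes, the 2 named here fell (3.23%, against 1.03% of all tested genes). None rose, against 3.57% of all tested genes, although the highest difference in these classes was 5.79. Without the 95 tested genes that were listed at 0 in a mouse, no gene had an adjusted p below 0.05, while 1110 had an unadjusted one.

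Lists of proliferation and of several other responses each held at most 1 gene that passed. Of 18 tested genes of replication and mitosis 1 fell (5.56%, against 1.03% of all tested genes), and the median was -0.10. The gene was *Cdc20*, an activator of the anaphase-promoting complex, which went from 2.30 and 2.49 FPKM to 1.27 and 1.43 FPKM. *Mki67*, the gene of the proliferation marker Ki67, was below the limit for testing, at 0.713 and 0.633 FPKM against 0.462 and 0.571 FPKM. Of 15 immediate early genes 1 fell (6.67%, against 1.03%), *Btg1* (99.6 and 79.3 against 57.2 and 52.7 FPKM). None of 20 interferon-stimulated genes passed (median -0.21), nor did any of 16 genes of the unfolded protein response (median -0.07), 17 circadian clock genes (median 0.08), 12 NRF2 targets (median -0.03) or 18 genes of sterol synthesis (median -0.23). Both heterozygous mice were below both wildtype mice for 12 of the 18 sterol genes and 8 of the 18 replication genes, against 20.0% of all tested genes. The reverse held for 0 and 1 of them. On the list of MHC class I presentation *Tap1* was the 1 of 11 that passed (9.09% lower, against 1.03%), and it is also a p53 target.

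Genes near *Trp53* were examined because they can be inherited together with the engineered allele. Within 5 Mb of the gene on chromosome 11, 146 genes were tested, 11 rose (7.53%, against 3.57% of all tested genes) and none fell, with a median of 0.05. The higher ones included *Myh1*, *Myh4* and *Eno3* of the skeletal muscle list and *Myh8*, a further myosin gene of the same cluster (7.33 and 11.6 against 23.8 and 33.8 FPKM), together with *Dhrs7c* and *Smtnl2*.

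Of the remaining genes that the study names, *Ppm1j*, a protein phosphatase, rose from 1.15 and 2.09 FPKM to 4.45 and 4.88 FPKM, a difference of 1.53 ± 0.32 (SE, n = 2 per genotype, limma adjusted p = 0.333). The study lists *Ppm1j* among targets of wildtype p53. The *Ppm1j* call was lost without heterozygous mouse 40. *Hsp90ab1*, the constitutive HSP90, was at 669 and 687 FPKM against 753 and 652 FPKM, and *Id4*, an inhibitor of basic helix-loop-helix factors, at 17.5 and 14.8 FPKM against 17.2 and 16.8 FPKM. Both overlapped between the genotypes, as did *Prkab1*, a regulatory subunit of AMP-activated kinase, at 65.3 and 59.3 FPKM against 61.0 and 58.2 FPKM.

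Calls of other genes named above also rested on single mice. Without wildtype mouse 39 *Ak1*, *Btg1*, *Pecam1* and *Tie1* no longer passed, and without wildtype mouse 41 *Lyz2*, *Cd163*, *Th*, *Plin1* and *Cdc20* no longer passed. *Acta1*, *Cd163*, *S100b*, *Tie1*, *Plin1*, *Igkc* and *Cdc20* were lost without heterozygous mouse 37. *Acta1*, *Ak1*, *Btg1*, *Cd163*, *Cldn5*, *Pecam1*, *Plin1*, *S100b*, *Th*, *Tie1* and *Cdc20* were lost without heterozygous mouse 40. *Prol1*, *Odam*, *Dbh* and *Myh4* were also lost without heterozygous mouse 40, and *Myh4* without heterozygous mouse 37 too. *Car6*, *Igha*, *Rrm1*, *Pvt1*, *Ampd1*, *Cacna1s*, *Myh1*, *Myoz1*, *Sox10*, *Aqp5*, *Cryab*, *Lif* and *Fam212b* passed in every alternative in which they were tested.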

How the data were processed

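Prostate RNA was sequenced by the authors from TruSeq Stranded mRNA libraries. They aligned reads to GRCm38 (mm10) with HISAT and deposited gene-level FPKM from Cufflinks for each mouse, and the submitters' processing notes also name Cuffnorm and bcl2fastq. Versions and the annotation are not given in the sources used here. FPKM are already scaled for transcript length and mapped fragments. Fragment numbers were not used, so the counting error of single values and of values listed at 0 is unknown.

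Groups came from the labels. Values were tested as log2(FPKM + 0.1), which understates changes of low genes, for the 13737 genes that averaged 1 FPKM or more in the 4 mice, with limma 3.58.1 in R 4.3.3 (eBayes with an intensity trend, 2 residual and 2.89 prior degrees of freedom), and p-values were adjusted over all tested genes. Two-sided tests were used. The scripts were tested on simulated data. Positions and gene classes came from GENCODE M21, which holds 47305 of the 47719 identifiers, and promoters from RefSeq. For 124 symbols with several identifiers, the one with the highest mean FPKM was named.

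Gene lists and members were chosen with earlier results of these data known. Named genes are *Trp53*, the 12 higher and 12 lower genes with the largest change and the 8 of each with the smallest p (predicted, RIKEN and clone names left out, and the 12 higher ones taken outside the muscle list), p53 targets that passed, up to 4 passing or 3 most abundant members of every other list, and tested genes the study names. Some genes that this rule selects are not reported here. Other named genes are given as members of a described list or said to be chosen after their values were seen.

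Alternatives were pseudocounts of 1 and 0.01, no filter, an average of 5 FPKM or more, scaling by quantiles or by the median, no intensity trend, all 6 mice in the fit, an ordinary test on each gene alone, and leaving out each mouse. Leaving out genes listed at 0 in a mouse was added after seeing the data. Lists, promoters and figures were handled in Python 3.11.15 (numpy 2.4.6, pandas 2.3.3, matplotlib 3.10.9).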

Additional observations from a re-analysis of the deposited data

How the results depend on the processing

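Against 490 higher and 141 lower genes, no filter on low values gave 838 and 342, and a mean FPKM of at least 5 gave 250 and 87. Leaving out 1 mouse gave 281 to 1004 higher and 118 to 511 lower genes and 0 to 536 genes with an adjusted p below 0.05. Without wildtype mouse 41 the counts were 1004, 511 and 536, the last including 19 p53 targets, without wildtype mouse 39 they were 723, 383 and 63, without heterozygous mouse 37 they were 319, 118 and 0, and without heterozygous mouse 40 they were 281, 124 and 0. In these fits the remaining mouse of a genotype is assumed to vary like the other genotype. The 1 gene with an adjusted p below 0.05 became 0 with all 6 mice in the fit (940 unadjusted), with an ordinary test on each gene alone (1417 unadjusted) and without genes listed at 0 (1110 unadjusted, chosen after seeing the data). The cause of these changes was not tested. The p53 targets that fell numbered 21 to 28 with 1 mouse left out and 19 to 27 in the other alternatives, against 27. The skeletal muscle genes that rose numbered 27 to 31 with 1 mouse left out, and 17 in the ordinary test on each gene alone, which has no shared estimate of the spread, against 30. None of the 81 named genes that passed changed direction in any alternative, while 17 of the 42 that did not pass had the other sign in at least 1. Leaving out a mouse cannot change the sign of a gene whose genotypes do not overlap. This contrast therefore follows partly from how the genes were picked and does not measure stability. Of the 81, 38 passed in every alternative in which they were tested. The share of higher genes among all calls was 77.7% and became 65.4% without wildtype mouse 39, 66.3% without wildtype mouse 41, and lay between 69.4% and 78.3% otherwise. No paired analysis was possible because the mice are different animals and the labels name no litter, cage or batch by which to pair them. With 2 mice per genotype the median 95% interval extended 0.45 to either side on the log2 scale.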
